A study of Mus musculus with 20 samples.

Results

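The small leucine-rich proteoglycans are secreted matrix proteins built around a run of leucine-rich repeats. The 10 genes described here are Fmod, Prelp, Omd, Lum, Kera, Dcn, Bgn, Aspn, Ogn and Epyc. They were taken by gene symbol from the array's annotation, and all 10 were found among the 22180 mouse genes that had a probe set of their own. A probe set is the group of oligonucleotides that reads 1 transcript. For 3 of the genes (Fmod, Prelp and Bgn) there was a second probe set, and the one with the higher mean signal over the 20 arrays stood for the gene.

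As background, most of these proteins carry chains of keratan sulfate, chondroitin sulfate or dermatan sulfate, and many bind fibrillar collagen and set the width and spacing of its fibrils. Several also bind growth factors of the TGF-β family outside the cell. They are known from tendon, bone, cartilage, skin and cornea, and are grouped into classes by sequence. Fmod, Lum, Prelp, Kera and Omd form class II, Dcn, Bgn and Aspn class I, and Ogn and Epyc class III.

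Expression was measured on Affymetrix mouse gene arrays in C2C12, an established mouse myoblast line that fuses to muscle fibres and that turns towards the osteoblast fate under bone morphogenetic proteins. The 20 arrays comprised 2 each of cells given recombinant BMP4 at 10, 100 and 300 ng/ml, 1 each of cells given compound 942, 178 or 181 at 6.25, 12.5 and 25 µM, 3 of cells given methanol, and 2 of untreated cells. All cells were the same line in medium with serum, BMP4 was set against untreated cells, and the compounds against methanol. The sources used here do not say how long the treatments lasted, and the doses of 100 ng/ml and 12.5 µM stand in the sample titles but not in the treatment protocol.

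All values are log2 signals, so that a difference of 1 is a 2-fold change. A pair of features of the arrays touch every result below. The RNA of BMP4 300 ng/ml replicate 1 and of all 942 arrays was labelled by a method named Affyexpress and that of the other arrays by the standard method, and the model held a term for this. As a result the fitted 300 ng/ml value rests on replicate 2 alone, and each 942 value rests on the difference between the 2 arrays at 300 ng/ml. The titles also fall into a first and a second run of numbers, each with its own untreated, methanol and BMP4 arrays, and values within each run are given beside the fit where they differ. Nothing in the labels tells whether replicates were separate cultures; the p-values therefore cover only the spread among these arrays, which may be technical. The median signal of an array lay between 4.93 and 5.05, and arrays of the same group correlated at 0.982 to 0.991 over all genes.

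The labelled cell type was checked on 7 myoblast markers, which were all above the median of all genes over the arrays. Their mean signal was 8.79 to 10.76 on the BMP4 arrays and 10.76 to 10.84 on the control arrays (untreated and methanol). The mean signals of markers of other cells lay below the median of all genes, which was 5.43. That of 5 macrophage markers was 4.50 to 4.67 on BMP4 arrays and 4.32 to 4.44 on control arrays. For 5 endothelial markers it was 4.04 to 4.29 and 3.95 to 4.23, and for 4 epithelial markers 4.83 to 5.05 and 4.98 to 5.18. Taken singly, 1 of the macrophage, 0 of the endothelial and 2 of the epithelial markers stood above that median. The highest of these averaged 5.89, a macrophage marker. None of these other markers passed the test for BMP4. In bulk RNA, more cells with a transcript and more transcript per cell cannot be told apart.

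Under BMP4, 7 of the 10 proteoglycan genes rose and 0 fell (mean over the 3 doses minus untreated). The 7 were Fmod, Aspn, Omd, Prelp, Ogn, Lum and Dcn. Bgn, Kera and Epyc did not pass. Fmod had the second highest rise of all genes on the array, Aspn the 5th, Omd the 7th and Prelp the 23rd. A gene counts as risen or fallen where limma's p-value, adjusted by Benjamini-Hochberg over all 22180 genes, was under 0.05. At that threshold 8.81% of all genes were called in either direction and 4.20% as higher. The 10 genes were chosen with earlier results of these data known. The shares over all genes, here and below, are therefore given for scale and are no test of the family. The median difference was 1.22 over the 10 genes and -0.01 over all genes.

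**Figure D1:**
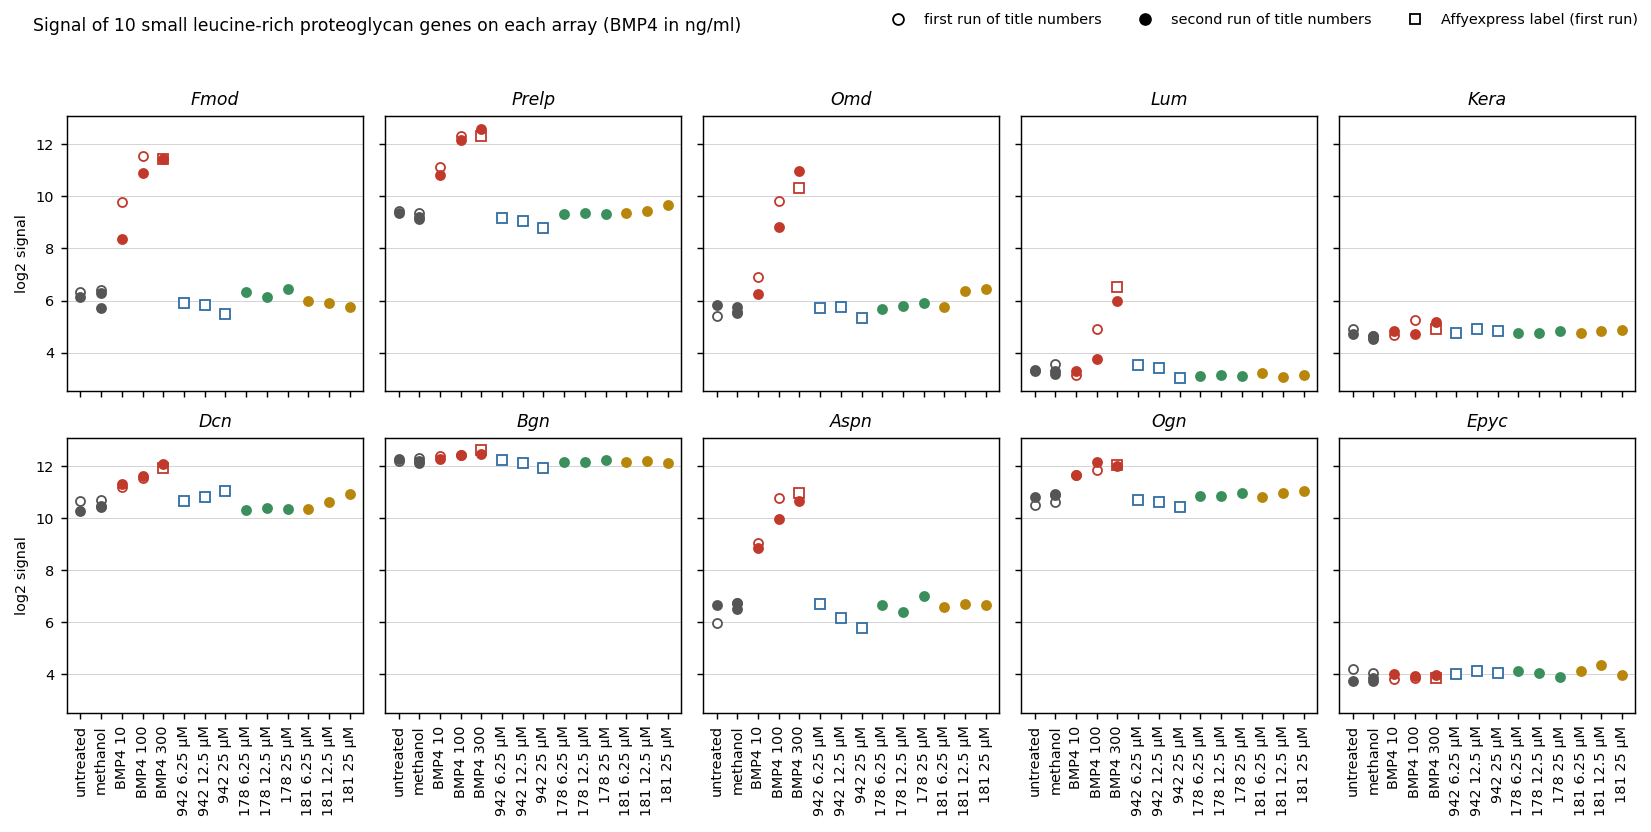
Log2 signal (vertical axis) of each gene on each of the 20 arrays, by treatment and dose (horizontal axis; controls grey, BMP4 red in ng/ml, compounds blue, green and ochre in µM). Open symbols are the first run of title numbers, filled symbols the second, squares the Affyexpress label. For Fmod, Prelp, Aspn, Ogn and Dcn all 6 BMP4 arrays lie above all 14 others.

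Fibromodulin, encoded by Fmod, binds type I collagen and limits fibril thickness. Its signal was 9.78 and 8.36 at 10 ng/ml, 11.54 and 10.90 at 100 ng/ml, and 11.45 and 11.44 at 300 ng/ml BMP4 (replicates 1 and 2), against 6.34 and 6.13 in untreated cells. On the methanol arrays it was 6.42, 5.70 and 6.28. Every BMP4 array thus stood above every other array, by at least 1.92 between the lowest BMP4 array and the highest other one. The rise averaged 4.34 (SE 0.32, adjusted p = 9.22e-06), or 20.3-fold.

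Prelp encodes a heparin-binding member of the family that also binds collagen. Its signal was 11.12 and 10.82, then 12.32 and 12.16, then 12.31 and 12.58 at the 3 rising doses of BMP4, against 9.45 and 9.37 in untreated cells. The methanol arrays read 9.38, 9.14 and 9.21. No BMP4 array overlapped the rest, and replicates at a dose were close to each other. The rise was 2.52 (SE 0.10, adjusted p = 1.78e-07), or 5.74-fold, and it was 1.53 when both probe sets of the gene were averaged.

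Omd encodes osteomodulin (osteoadherin), a keratan sulfate proteoglycan of mineralised bone matrix. It read 6.91 and 6.26 at 10 ng/ml, 9.82 and 8.83 at 100 ng/ml, and 10.31 and 10.99 at 300 ng/ml, against 5.40 and 5.81 in untreated cells. In methanol it read 5.56, 5.51 and 5.77. All 6 BMP4 arrays were above the 5 control arrays, and 5 of the 6 were above all 14 others, since the lower 10 ng/ml array (6.26) fell below 2 arrays of compound 181. The rise was 3.36 (SE 0.25, adjusted p = 9.22e-06), or 10.3-fold. Without BMP4 300 ng/ml replicate 2 it was 2.35, as a mean over 10 and 100 ng/ml only, since the 300 ng/ml dose could then not be fitted.

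Lumican, encoded by Lum, shares collagen binding with fibromodulin. Its signal was 3.13 and 3.31 at 10 ng/ml, 4.92 and 3.74 at 100 ng/ml, and 6.52 and 5.98 at 300 ng/ml, against 3.28 and 3.33 in untreated cells. In methanol it was 3.57, 3.19 and 3.29. The 2 arrays at 10 ng/ml lay among the controls and the 4 at higher doses above all other arrays. The rise over the 3 doses was 1.20 (SE 0.25, adjusted p = 0.00891). This call was lost when either untreated array was left out, with the difference at 1.18 and 1.23. It was also lost without the second 300 ng/ml array. That dose could then not be told apart from the label, so the mean covered 10 and 100 ng/ml only, at 0.47.

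Kera, which encodes the corneal proteoglycan keratocan, read 4.69 to 5.27 on the 6 BMP4 arrays and 4.73 to 4.89 in untreated cells. Of the 6 BMP4 arrays, 2 stood above all others, and the difference was 0.17 [95% interval -0.17, 0.52] (adjusted p = 0.655). In the control arrays the signals of Lum, Kera and Epyc were below the median of all genes (5.42). A signal in that range can be mostly background, and a change could then be understated. Whether that held here was not tested.

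In class I, decorin (Dcn), which binds collagen and TGF-β, rose. Its signal was 11.18 and 11.33 at 10 ng/ml, 11.55 and 11.62 at 100 ng/ml, and 11.94 and 12.09 at 300 ng/ml, against 10.66 and 10.29 in untreated cells. The methanol arrays read 10.68, 10.43 and 10.46. The groups did not overlap, although the highest compound array (11.03, for 942 at 25 µM) came close to the lowest BMP4 array. The rise was 1.17 (SE 0.11, adjusted p = 4.40e-05), or 2.25-fold.

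Aspn encodes asporin, which, unlike decorin, carries no glycosaminoglycan chain, and which binds collagen and TGF-β. It read 9.04 and 8.86, then 10.79 and 9.96, then 10.98 and 10.66 with rising BMP4, against 5.99 and 6.65 in untreated cells. In methanol it read 6.75, 6.52 and 6.74. The lowest BMP4 array was above all 14 others. The rise was 3.68 (SE 0.22, adjusted p = 1.70e-06), or 12.8-fold.

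Biglycan (Bgn), the closest relative of decorin in sequence, read 12.40 and 12.27, then 12.44 and 12.41, then 12.60 and 12.46 with rising BMP4, against 12.21 and 12.27 in untreated cells. Its difference of 0.17 [0.01, 0.33] did not pass (adjusted p = 0.227). Of the 6 BMP4 arrays, 5 were above all 14 others. Set against all 5 control arrays at once, the difference was 0.19 and passed (adjusted p = 0.0266). Signals of this gene were close to the highest of any gene on the arrays, a range in which array signals can flatten; whether they did here was not tested.

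In class III, osteoglycin (Ogn), a small proteoglycan named for its isolation from bone, rose. It read 11.64 and 11.65 at 10 ng/ml, 11.86 and 12.15 at 100 ng/ml, and 12.03 and 12.02 at 300 ng/ml, against 10.50 and 10.81 in untreated cells. Methanol gave 10.63, 10.89 and 10.91. The groups did not overlap, and the rise was 1.24 (SE 0.11, adjusted p = 4.23e-05), or 2.35-fold. Epyc, which encodes the cartilage proteoglycan epiphycan, read 3.84 to 4.03 under BMP4, inside the 3.75 to 4.22 of untreated cells (difference -0.05 [-0.40, 0.30], adjusted p = 0.920). None of its 6 BMP4 arrays stood above both untreated arrays.

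By overlap alone, all 6 BMP4 arrays stood above all 14 other arrays for 5 of the 10 genes (Fmod, Aspn, Ogn, Dcn and Prelp), against 1.69% of all genes. Leaving out the 4 Affyexpress arrays could not check the BMP4 calls. With the labelling term, these arrays had no part in the fitted BMP4 differences or their residual spread.

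The genes differed in how they followed the BMP4 dose. At 10 ng/ml 5 of the 10 had already risen, where 1.10% of all genes were called: Fmod by 2.84, Aspn by 2.63, Prelp by 1.56, Ogn by 0.99 and Dcn by 0.78. Omd stood at 0.98 (SE 0.29, adjusted p = 0.192) and Lum at -0.08 (adjusted p = 0.958). Both Omd arrays at this dose were above the 5 control arrays, and Omd passed under 3 of 29 other settings. Among them was the fit against untreated and methanol arrays together (0.98, limma's adjusted p = 0.0446). At 100 ng/ml 7 were called, against 9.15% of all genes, and at 300 ng/ml the same number, against 7.98%. At the highest dose the fit put Omd at 5.39, Fmod at 5.20, Aspn at 4.34, Prelp at 3.17, Lum at 2.67, Dcn at 1.62 and Ogn at 1.37. Within the first and second runs Fmod stood at 5.11 and 5.30, Omd at 4.91 and 5.18, and Aspn at 4.99 and 4.01. Fmod was thus above Omd in both runs, unlike in the fit. The 3 doses share the 2 untreated arrays. The calls of Dcn and Ogn at the lowest dose rested on few arrays: Dcn did not pass once untreated replicate 2 (0.60, adjusted p = 0.0955) or either 10 ng/ml array (adjusted p = 0.0626 and 0.0690) was left out, and Ogn did not pass in the absence of untreated replicate 1 (adjusted p = 0.0562). The call of Lum at 100 ng/ml (1.02, adjusted p = 0.0496) ended under 10 of 28 other settings, among them leaving out either untreated array (adjusted p = 0.182 and 0.158), and was 0.44 with the first 100 ng/ml array left out (adjusted p = 0.335).

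**Figure D2:**
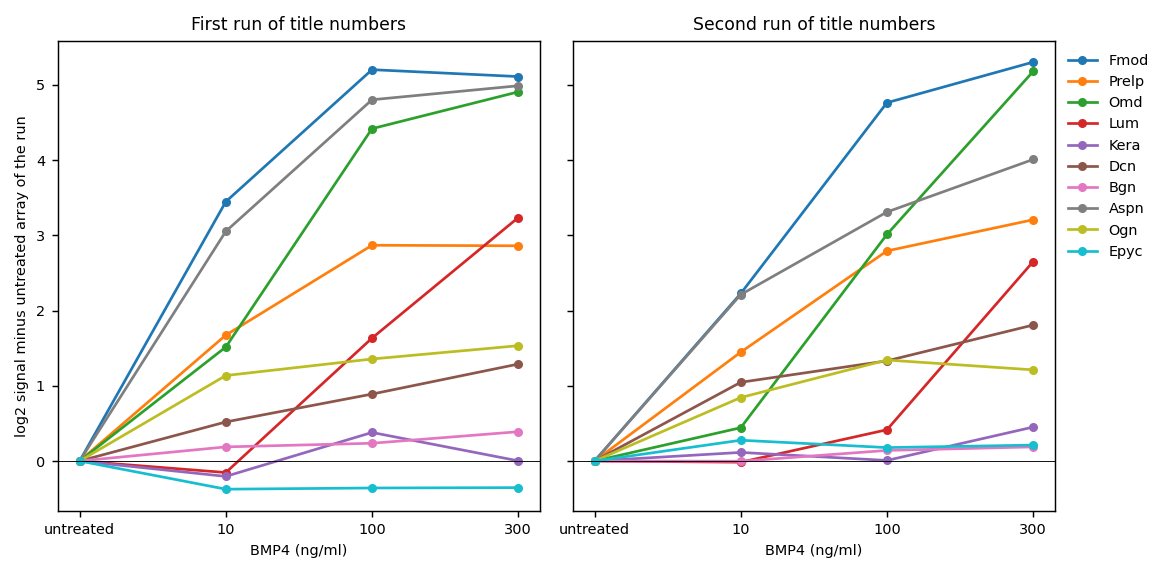
Log2 signal minus that of the untreated array of the same run (vertical axis) by BMP4 dose in ng/ml (evenly spaced on the horizontal axis), for each run of title numbers; each point is 1 array and each line 1 gene, with no error bars. In both runs Lum is near 0 at 10 ng/ml, and Omd lies below Fmod, Aspn and Prelp at 10 ng/ml but above Prelp at 100 and 300 ng/ml.

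Within the doses, the signal of 6 genes rose with log2 dose, where 5.40% of all genes had a called slope. Omd rose by 0.89 for each 2-fold step in dose [0.74, 1.04], Lum by 0.53 [0.38, 0.68], Fmod by 0.51 [0.31, 0.70], Aspn by 0.36 [0.23, 0.49], Prelp by 0.34 [0.27, 0.40] and Dcn by 0.16 [0.09, 0.23]. Ogn, at 0.08 [0.01, 0.15], did not pass (adjusted p = 0.201). In the fit, the interval of Omd does not meet those of the other 5, but the difference between the slopes of genes was not tested. The fitted 300 ng/ml value is from the second run, and the lower doses are from both. From 10 to 300 ng/ml in the first run, Omd went from 1.52 to 4.91 above untreated and Lum from -0.15 to 3.24, a like span. In the second run Omd went from 0.44 to 5.18 and Lum from -0.02 to 2.65. Without BMP4 300 ng/ml replicate 2 the highest dose could not be fitted, so the slope covered the lower doses only. It was then 0.10 for Dcn and 0.33 for Lum. These values are a different quantity and do not check the slope over all doses. Leaving out the first 10 ng/ml array ended the call for the Dcn slope (0.14). The call for Prelp ended when its probe sets were averaged (0.15, adjusted p = 0.0633).

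From 10 to 100 ng/ml 4 of the 10 genes rose, against 2.95% of all genes: Omd by 2.74, Fmod by 2.15, Aspn by 1.42 and Prelp by 1.27. Lum stood at 1.11 (adjusted p = 0.0736) and Ogn at 0.36 (adjusted p = 0.250). Where the fit also held the run of each array, both passed (adjusted p = 0.0299 for Lum and 0.0197 for Ogn), which made 6 calls. The Fmod and Aspn steps lost their calls without BMP4 100 ng/ml replicate 1 or without BMP4 10 ng/ml replicate 2, which left 2 calls each time. From 100 to 300 ng/ml limma called 0 of the 10, against 0.00902% of all genes, while 4 of the 10, and 1129 of all 22180 genes, had an unadjusted p under 0.05. The largest of these steps were those of Omd (1.67 [0.89, 2.45], adjusted p = 0.493) and Lum (1.65 [0.86, 2.43], adjusted p = 0.512). Within runs, Omd stood 4.42 and then 4.91 above untreated in the first, and 3.01 and then 5.18 in the second. Lum stood at 1.63 and then 3.24 in the first run, and at 0.42 and then 2.65 in the second. Without BMP4 100 ng/ml replicate 1 the steps of Omd and Lum were 2.17 and 2.23, from the second run alone.

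The share of the 300 ng/ml change already reached at 10 ng/ml can be read within each run. For Ogn it was 74.2% in the first run and 69.6% in the second, for Aspn 61.2% and 55.2%, for Prelp 58.5% and 45.1%, for Fmod 67.5% and 42.0%, and for Dcn 40.3% and 57.9%. For Omd it was 30.9% and 8.55%, and for Lum -4.73% and -0.596%. Omd and Lum had the lowest shares of the 7 risen genes in both runs. These shares are on the log2 scale and rest on 1 array for each dose and run.

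Most of these genes lie side by side in the mouse genome. By the gene order of RefSeq's GRCm38.p6 table, with no other protein-coding gene between them, chromosome 1 holds Optc, Prelp and Fmod, chromosome 10 holds Dcn, Lum, Kera and Epyc, and chromosome 13 holds Ecm2, Aspn, Omd and Ogn. Bgn lies on the X chromosome apart from the others. On chromosome 1 Prelp and Fmod rose while Optc, which encodes the eye protein opticin, stood at 0.26 (adjusted p = 0.422). On chromosome 10 Dcn and Lum rose and the next 2 genes, Kera and Epyc, did not pass. On chromosome 13 all 4 rose, with Ecm2, a matrix protein with the same kind of repeats, at 1.59 (SE 0.16, adjusted p = 9.13e-05), but with unlike dose profiles: Ecm2 stood at 1.50, 1.74 and 1.52 with rising dose, Aspn at 2.63, 4.06 and 4.34, Omd at 0.98, 3.72 and 5.39, and Ogn at 0.99, 1.35 and 1.37.

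**Figure D3:**
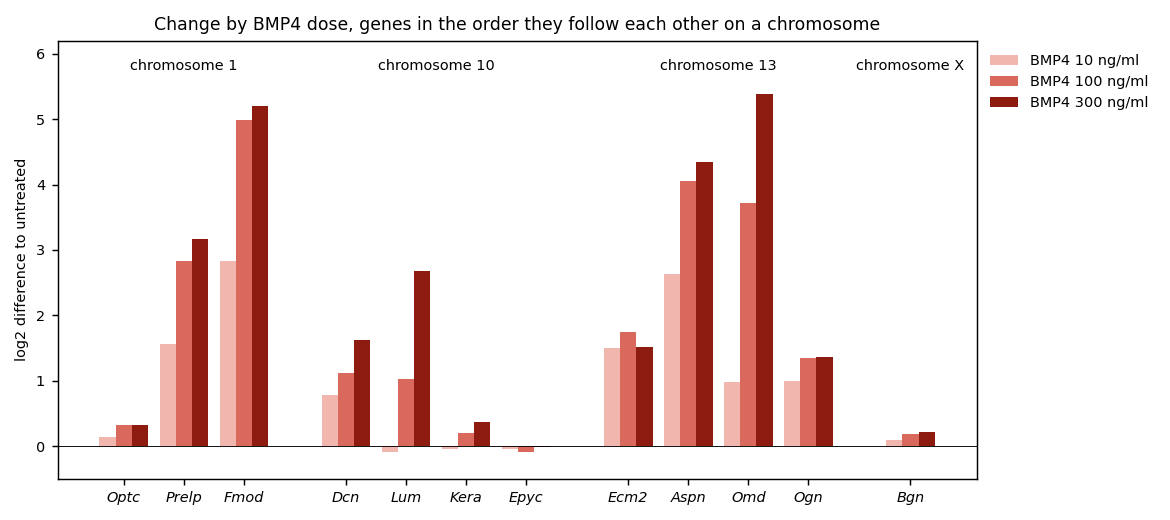
Fitted log2 difference to untreated cells (bars from 0) at BMP4 10, 100 and 300 ng/ml (light to dark), with genes in the order in which they follow each other on chromosomes 1, 10, 13 and X; no error bars are drawn. On chromosome 13 all 4 genes stand above 0 and differ in dose profile; on chromosome 10 the rise is seen in Dcn and Lum, with Kera at 0.37 and Epyc at -0.02 at the highest dose.

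Promoter windows from RefSeq (GRCm38.p6, 250 bases before to 50 after the start) were at hand for 8 of the 10 genes, with 2 for Epyc, and are 300 bases long. Those of 2 pairs of neighbours are shown: Fmod and Prelp, whose profiles over the 20 arrays were among the most alike, and Aspn and Omd, which lie side by side and differed in dose profile. Capitals mark the letters GTCTG or their reverse complement CAGAC, the core to which SMAD proteins, the DNA-binding effectors of BMP and TGF-β receptors, are known to bind. All are written 5′ to 3′ on the gene's strand.
Fmod, chr1:134037004-134037303, plus strand: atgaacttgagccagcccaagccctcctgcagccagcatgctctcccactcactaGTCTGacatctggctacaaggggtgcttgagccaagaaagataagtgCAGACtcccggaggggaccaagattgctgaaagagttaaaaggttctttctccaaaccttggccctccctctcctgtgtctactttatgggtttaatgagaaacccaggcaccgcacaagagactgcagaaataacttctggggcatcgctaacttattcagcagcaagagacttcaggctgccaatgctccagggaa
Prelp, chr1:133921352-133921651, minus strand: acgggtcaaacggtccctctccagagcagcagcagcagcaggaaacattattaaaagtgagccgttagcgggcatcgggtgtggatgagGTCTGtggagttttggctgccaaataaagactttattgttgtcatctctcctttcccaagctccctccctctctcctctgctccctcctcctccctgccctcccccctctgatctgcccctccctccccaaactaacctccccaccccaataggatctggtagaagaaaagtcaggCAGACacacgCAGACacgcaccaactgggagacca
Aspn, chr13:49544193-49544492, plus strand: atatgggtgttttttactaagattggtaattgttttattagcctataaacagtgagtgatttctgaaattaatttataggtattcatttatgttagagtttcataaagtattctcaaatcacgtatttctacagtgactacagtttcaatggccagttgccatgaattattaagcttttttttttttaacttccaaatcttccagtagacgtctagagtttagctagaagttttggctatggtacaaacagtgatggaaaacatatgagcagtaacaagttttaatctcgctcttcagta
Omd, chr13:49582212-49582511, plus strand: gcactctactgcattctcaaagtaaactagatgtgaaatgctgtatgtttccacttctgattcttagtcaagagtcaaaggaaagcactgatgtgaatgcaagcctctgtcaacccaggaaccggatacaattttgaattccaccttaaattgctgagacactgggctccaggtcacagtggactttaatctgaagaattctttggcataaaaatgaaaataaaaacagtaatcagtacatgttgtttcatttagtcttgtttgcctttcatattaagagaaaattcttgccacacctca
The Fmod window holds the SMAD letters at 2 places, positions -195 and -148 from the start, and the Prelp window at 3, at positions -161, 16 and 26 (the start is position 1 and the first letter of the match is counted). The windows of Aspn and Omd hold none. Of the 9 windows 2 held GTCTG on either strand, against 49.6% of all 32851 windows. The GC-rich SMAD letters GGCGCC, which do not overlap with the first motif, were in 0 of the 9, against 11.9% of all. The RUNX letters TGTGGT were in 2 (Epyc and Ogn), against 16.8%, and the E-box letters CANNTG, bound by myogenic factors such as MyoD, in 7, against 72.3%, all on either strand. These are matches of letters and say nothing of binding, and letters outside the windows were not looked at.

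Over the 20 arrays, the genes with the most similar profile to Fmod were Sdc3 (Pearson r = 0.99), Prelp (0.99) and Lgr4 (0.99). For Aspn they were Fmod, Prelp and Fos (0.98 each), for Prelp Sdc3 (0.99), Fmod (0.99) and Sfrp2 (0.98), and for Omd Krt14, Myo6 and Rab27b (0.99 each). Ogn was closest to Srpx2, Chac1 and Ankrd44 (0.97 to 0.98), Dcn to Cbr2, Plpp3 and Pi15 (0.93 to 0.95), and Lum to Sp6, Ctsh and Bambi (0.96 to 0.98). These values describe 693 genes whose SD over the arrays was at least 0.5, and they include the gap between BMP4 and the other arrays. Within the 6 BMP4 arrays, which span the 3 doses, r of Fmod was 0.97 with Sdc3, 0.96 with Prelp and 0.99 with Lgr4. The lowest such value among the pairs named was 0.66, for Ogn with Chac1. Without the 6 BMP4 arrays, r of Fmod with Sdc3 was 0.33 over the other 14, with Prelp 0.48 and with Lgr4 -0.20. Ogn kept the highest value, 0.91 with Chac1.

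None of the 10 genes passed the test under any of the compounds, which are known here by their code names. Over 3 doses against the 3 methanol arrays, limma called 0 of 10 for 942, 0 for 178 and 0 for 181. Over all genes, 0% were called for 942, 0% for 178 and 0.00451% for 181. At an unadjusted p under 0.05 stood 1 of the 10 for 942, 0 for 178 and 2 for 181, against 333, 547 and 816 of all 22180 genes. Methanol minus untreated also gave 0 calls among the 10, with 0 of them and 634 of all genes at an unadjusted p under 0.05, and 0% called over all genes. Each compound dose is 1 array, assumed to vary like the replicated groups.

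**Figure D4:**
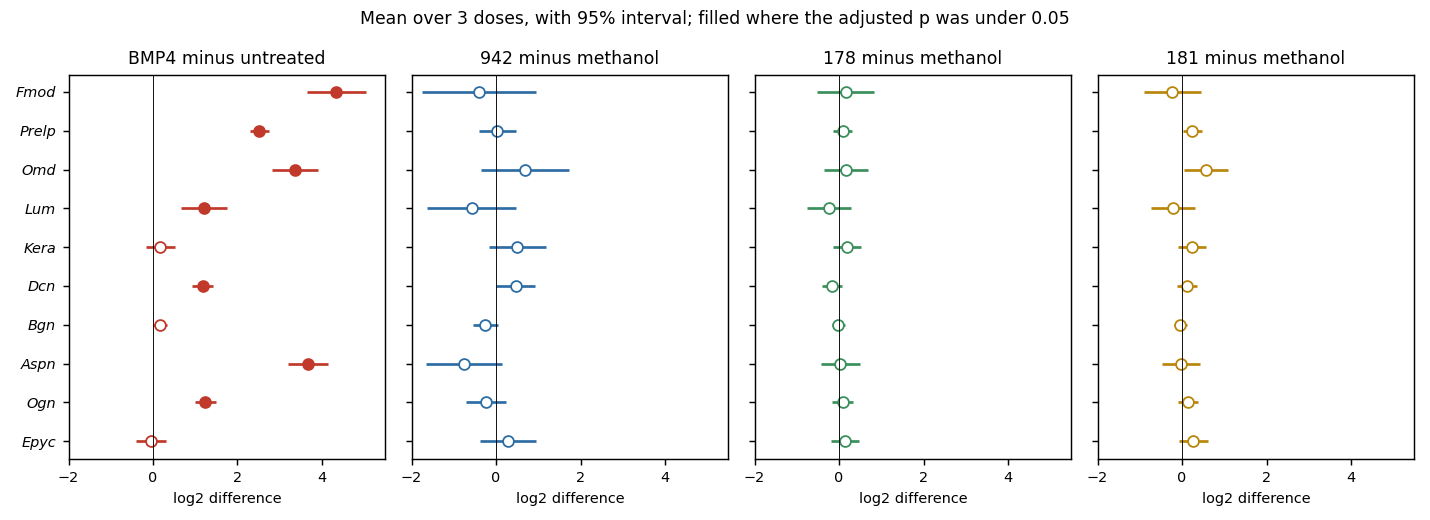
Log2 difference (horizontal axis) of each gene, averaged over 3 doses, for BMP4 minus untreated and for compounds 942, 178 and 181 minus methanol; bars are 95% intervals and filled points passed at an adjusted p under 0.05. BMP4 has 7 filled points and the compounds none, and the intervals of 942 are the widest.

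In 181, the unadjusted 95% intervals of Omd and Prelp lay above 0, though neither gene passed. Omd read 5.74, 6.36 and 6.46 at 6.25, 12.5 and 25 µM of 181, against 5.56, 5.51 and 5.77 in methanol. The 2 higher doses were above every control array, and the mean difference was 0.58 [0.05, 1.10] (adjusted p above 0.99). At 25 µM it was 0.85 [0.11, 1.58] (adjusted p = 0.697). Prelp read 9.37, 9.44 and 9.65 with rising 181, against 9.38, 9.14 and 9.21 in methanol (mean difference 0.24 [0.02, 0.46]), and untreated cells at 9.45 and 9.37 covered all but the highest dose. Dcn read 10.37, 10.62 and 10.91 with rising 181, against 10.68, 10.43 and 10.46 in methanol, and stood at 0.39 [0.06, 0.71] at 25 µM (adjusted p = 0.670). Fmod read 6.0, 5.92 and 5.77 with rising 181, inside the methanol range of 5.70 to 6.42.

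Compound 942 is described within its run, against the single methanol array there, since the model gave it intervals up to 1.35 wide on either side. Fmod read 5.92, 5.83 and 5.48 at 6.25, 12.5 and 25 µM of 942, against 6.42 in that methanol array (differences of -0.50, -0.59 and -0.94). Aspn read 6.71, 6.18 and 5.80, against 6.75, and Prelp 9.17, 9.07 and 8.77, against 9.38. Bgn read 12.22, 12.11 and 11.92, against 12.30. The 25 µM array was the lowest of all 20 for 7 of the 10 genes, namely these 4 and Omd (5.33), Ogn (10.43) and Lum (3.01). The share of all genes that were lowest on this array was not counted, so the 7 cannot be set against it. Dcn instead read 10.65, 10.83 and 11.03, against 10.68. In the model, with the labelling term, the means over doses were -0.40 for Fmod, -0.76 [-1.67, 0.14] for Aspn, 0.03 for Prelp, -0.25 for Bgn and 0.47 [0.01, 0.92] for Dcn. Label and compound cannot be told apart in 942, beyond what the 2 arrays at 300 ng/ml BMP4 give.

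In 178, all mean differences lay between -0.24 (Lum) and 0.18 (Kera). Fmod read 6.31, 6.14 and 6.44 with rising 178, and Omd 5.66, 5.78 and 5.91. Between compounds at matched doses, limma called 0 of 10 for 181 minus 178 (0.00451% of all genes), 0 for 942 minus 178 (0%) and 0 for 942 minus 181 (0%), with 1, 1 and 0 of the 10 at an unadjusted p under 0.05, against 1173, 401 and 364 of all genes. Dcn stood at 0.28 [0.05, 0.51] in 181 minus 178 (adjusted p = 0.879) and at 0.63 [0.18, 1.09] in 942 minus 178 (adjusted p above 0.99). The intervals of 181 minus 178 reached up to 0.67 on either side of the estimate, so differences of that size are not resolved.

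The effect of BMP4 was larger than that of each compound for most of the risen genes, tested as the difference of the 2 effects. Against 942 it was larger for 5 of the 10 (Fmod, Aspn, Omd, Ogn and Prelp), where 0.780% of all genes were called, against 178 for 7 (those and Dcn and Lum), where 3.52% were called, and against 181 for 6 (all but Lum of these), where 2.86% were called. The difference to 181 was 4.58 for Fmod, 3.71 for Aspn, 2.79 for Omd and 2.28 for Prelp. Lum missed the threshold there at 1.42 (adjusted p = 0.0514), but passed under 7 of 29 other settings, among them the fit with a term for the run (1.37, adjusted p = 0.0270). The Lum call against 178 (1.44, adjusted p = 0.0418) was lost under 13 of 29 settings. Among them was each fit that left out 1 control array. The fit without BMP4 300 ng/ml replicate 2 (0.71) was another, but its BMP4 mean covered the lower doses only. Against 942 the call of Omd (2.68, adjusted p = 0.0319) was lost under 7 other settings, among them each of the 5 fits that left out 1 control array (adjusted p = 0.0516 to 0.121), and with no variance trend 3 calls were left.

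Other matrix genes were counted for the BMP4 mean over doses. In that comparison 8.81% of all genes were called in either direction and 4.20% as higher, the shares to set beside each list count below. Among 7 other measured genes with this kind of leucine-rich repeats 2 rose and 0 fell: Podnl1, a podocan-like protein, by 1.66 (SE 0.25, adjusted p = 0.00113) and Ecm2. Their median was 0.05. Of 25 proteoglycans outside the family 6 rose and 1 fell (median 0.03). They included Prg4, the joint lubricant lubricin, up by 4.02 with 8.34 ± 1.60 under BMP4 (SD, n = 6), Sdc3, a transmembrane heparan sulfate proteoglycan, up by 2.87, Gpc6, a glypican, up by 1.57, and Vcan (versican), up by 0.69.

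Among 19 measured genes for fibrillar collagens, collagens VI, XII and XIV, fibronectin and crosslinking enzymes, 11 rose and 0 fell (median 0.64). Col12a1, a fibril-associated collagen, rose by 2.17, Col1a2 and Col1a1, the chains of type I collagen, by 1.22 and 1.12, and Col6a2, a chain of the microfibrils that bind biglycan and decorin, by 1.19. Col1a1 and Col1a2 stood at 0.18 and 0.30 at 10 ng/ml and at 1.93 and 1.98 at 300 ng/ml.

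The enzymes that build the sugar chains were counted in the same comparison, where 8.81% of all genes were called and 4.20% as higher. Of 20 genes for chondroitin and dermatan sulfate 3 rose and 0 fell (median 0.10), namely the sulfotransferase Chst12 by 0.89, the dermatan sulfate epimerase Dse by 0.82 and the chondroitin synthase Chsy1 by 0.36. Of 8 for keratan sulfate 1 rose and 1 fell (median 0.09): the galactosyltransferase B4galt1 rose by 0.36 and B4galt4 fell by 0.76 on the log2 scale. Of 24 binding partners, receptors and proteases 5 rose and 1 fell (median 0.08). The receptor tyrosine kinase Met fell by 1.74 on the log2 scale. Pcolce2, an enhancer of procollagen processing, rose by 0.81, the receptor Tlr2 by 0.76 and the ligand Tgfb2 by 0.72.

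Several family members are used as markers of tendon and fibroblasts, and 9 other markers of those cells did not share a direction. Scx, the tendon transcription factor scleraxis, stood at -1.88 (SE 0.15, limma's adjusted p = 1.23e-05), Pdgfra rose by 1.31 and Dpt (dermatopontin) by 0.99, and the other 6 did not pass. Of the 7 myoblast markers 5 fell and 0 rose. Myog, the differentiation factor myogenin, stood at 0.03 at 10 ng/ml and -5.12 at 300 ng/ml, and Cdh15, the muscle cadherin, at -0.30 and -3.65. At 10 ng/ml 0 of the 7 markers were called by limma, against 1.10% of all genes, with values between -0.73 (Itga7) and 0.45 (Myf5).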

How the data were processed

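The authors deposited log2 signals, 1 for each probe set and array, which per the submitters' processing notes were made in Partek 6.5 with RMA (background correction, quantile normalization and probe summary). Per the labels' protocols, some samples were labelled by the Affyexpress method and 3 by both methods as a basis for batch correction; the sources used here do not say whether the deposited values were corrected. The values were used as deposited. Of the probe sets, 23521 had 1 gene symbol, 1814 several and 16010 were not named in the annotation; those with 1 symbol gave 22180 genes, each by its probe set with the highest mean. R 4.3.3 and limma 3.58.1 fitted 1 mean for each treatment and dose plus a labelling term to all 20 arrays (lmFit, eBayes with trend, 5 residual degrees of freedom), with Benjamini-Hochberg adjustment over all genes and a threshold of 0.05. The fit was tested on simulated data. Precision is limited by the number of arrays. Intervals are 95% and unadjusted. All members and up to 4 called genes of each list, by size of change, are named. The members and the gene lists were chosen with earlier results of these data known. Promoter sequences are RefSeq's, and the sources used here name no genome build for the probe sets.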

Additional observations from a re-analysis of the deposited data

Results flagged for a closer look

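The second probe sets of Fmod and Prelp stood for the gene in none of the reported comparisons, entered only the setting that averaged a gene's probe sets, and had BMP4 arrays that stood above the controls. That of Fmod read 7.40 to 10.32 on the 6 BMP4 arrays and 5.21 to 6.0 on the 5 control arrays, a difference to untreated cells of 3.48 (SE 0.28, limma adjusted p = 1.81e-05). That of Prelp read 5.57 to 6.56 on BMP4 arrays and 5.19 to 5.52 on control arrays, with a difference of 0.55 (SE 0.21, limma adjusted p = 0.157), so the 2 Prelp probe sets differ in size of change. The second Bgn probe set overlapped between groups, at 10.41 to 11.01 on BMP4 arrays and 9.90 to 10.65 on control arrays (0.28, limma adjusted p = 0.527). With groups of at most 3 arrays, single outlying arrays were not tested.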

How the results depend on the processing

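The results were recomputed under 30 other settings: no labelling term, methanol or both controls as the control of BMP4, a term for the 2 runs of sample titles, no variance trend, 1 common mean for the doses, the mean of a gene's probe sets, quantile normalization, only genes above the median signal, each array left out in turn, and, added after the data were seen, all 4 Affyexpress arrays left out. Of 480 counts of called family members compared, 476 stayed within 1.5 times the reported count, and 0 of 4749 gene values reversed a call. Leaving out a compound array, BMP4 300 ng/ml replicate 1 or all Affyexpress arrays could not change the fitted BMP4 differences to untreated cells. Such settings were therefore no check of those differences, and these totals include them. The 4 counts that moved were these. The number called from 10 to 100 ng/ml (4 as reported) ranged from 2 to 5 when 1 array was left out, with 2 without BMP4 100 ng/ml replicate 1 and without BMP4 10 ng/ml replicate 2. The number called from 100 to 300 ng/ml (0 as reported) ranged from 0 to 2, with 2 without BMP4 100 ng/ml replicate 1. The number with a BMP4 effect above that of compound 942 (5 as reported) was 3 with no variance trend. The causes were not tested. For single genes 51 calls were lost and 29 gained over all settings. Lum lost its BMP4 call with 1 common mean for the doses (0.91, adjusted p = 0.301), and Bgn gained one at 300 ng/ml with no labelling term (0.29, adjusted p = 0.0444). Omd minus its 942 effect was 4.71 with 1 common mean (adjusted p = 0.0789). Some settings gave no value. The common mean has no separate doses, and Lum, Kera and Epyc were not among genes above the median signal. Compound 942 could not be fitted without either 300 ng/ml array or without the Affyexpress arrays. Without BMP4 300 ng/ml replicate 2 that dose could not be fitted, and the BMP4 mean and slope covered 10 and 100 ng/ml only. The labels carry no replicate numbers by which arrays could be paired, so the 2 runs of sample titles served as the block; with that term 6 genes were called from 10 to 100 ng/ml (4 as reported), and Lum passed in BMP4 minus 181 effects.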

Other observations

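Several collagen genes beyond those named above rose under BMP4 (mean over doses minus untreated, limma). Col2a1, the cartilage collagen, stood at 0.98 (adjusted p = 0.0467), Col5a2 at 0.65, Col5a1 at 0.64 and Col6a1 at 0.89, and the crosslinking enzyme Lox at 0.92. Col3a1, which codes for type III collagen, did not pass at 0.10 (adjusted p = 0.656), nor did Fn1 (fibronectin) at 0.12 (adjusted p = 0.339). The matrix proteases Mmp2 and Mmp14, which can cleave members of the family, rose by 0.61 and 0.48. These genes lie outside the rule for named genes and were chosen after their values were seen.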
